A study of Caenorhabditis elegans with 2 samples.

Results

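The regions described here are those of a ChIP-seq list that touch a tRNA gene. Members were all regions of the pooled list that shared at least 1 bp with a nuclear gene of biotype tRNA in the Ensembl annotation, and they numbered 264 of 30000 (0.88%). Because a region can hold 2 genes and a gene can lie under 2 regions, the 264 regions touched, by coincidence of number, 264 of the 612 nuclear tRNA genes. The other 348 genes lay under no pooled region.

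The study mapped NHR-76, a nuclear hormone receptor, in Caenorhabditis elegans by chromatin immunoprecipitation and sequencing, and it comprised 1 group of 2 libraries, biological replicates 1 and 2. Both came from whole, mixed sex L1 larvae of strain OP203, genotype unc-119(ed3) III; wgIs203, a transgenic line that makes NHR-76 joined to a C-terminal GFP-FLAG tag, and chromatin was sheared by sonication. The labels do not say whether the replicates came from separate cultures, give nhr-76 as the antibody's target and no promoter for the transgene, and name no sample without the tagged protein among these libraries. All cell types of the larva are mixed in each library, so a signal cannot be given to one cell type.

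Transfer RNA genes are transcribed by RNA polymerase III from promoters inside the gene. The factor TFIIIC recognises an A box near the start of the transcribed sequence and a B box further on, TFIIIB then recruits the polymerase just upstream, and a run of T ends the transcript. Many tRNA genes of C. elegans exist as identical copies scattered over the genome, many of them on X or inside introns of protein-coding genes.

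Gene sequences are shown for 8 members among the named regions, because they carry the promoter letters and anticodons discussed below. They were read from the RefSeq copy of WBcel235, which is the same assembly as ce11, on the coding strand, 5′ to 3′. Capitals mark, in this order, the A box letters TNGCNNAG where found, the anticodon, and the B box letters GTTCNANNC. The first is a proline gene with 24 identical copies, the next 3 are the leading alanine, leucine and valine genes, the following pair have no copy (isoleucine and glycine), and the last 2 are the leading glutamine and tyrosine genes.
F46G11.t2: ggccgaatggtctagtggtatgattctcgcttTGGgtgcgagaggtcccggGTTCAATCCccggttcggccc
F15G9.t1: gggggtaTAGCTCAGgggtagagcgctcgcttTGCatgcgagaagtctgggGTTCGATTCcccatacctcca
ZK678.t1: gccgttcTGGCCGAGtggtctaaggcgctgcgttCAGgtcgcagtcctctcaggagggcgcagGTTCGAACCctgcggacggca
R04D3.t2: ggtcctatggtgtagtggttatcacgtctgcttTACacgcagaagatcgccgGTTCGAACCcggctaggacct
F57F5.t1: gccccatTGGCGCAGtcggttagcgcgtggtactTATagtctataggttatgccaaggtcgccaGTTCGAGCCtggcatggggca
F10C1.t1: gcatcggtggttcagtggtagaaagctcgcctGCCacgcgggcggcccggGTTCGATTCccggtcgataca
R04A9.t1: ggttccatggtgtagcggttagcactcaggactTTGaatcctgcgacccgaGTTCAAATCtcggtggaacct
Y43F4A.t1: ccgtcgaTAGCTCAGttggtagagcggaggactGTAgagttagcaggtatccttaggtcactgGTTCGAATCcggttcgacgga

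The surroundings of 2 strong members are shown as 300 bases centred on the summit, with the tRNA gene in capitals. They are shown because summits of strong members tended to lie upstream of the middle of the gene. The summit lies before the gene at ZK678.t1 and inside the gene at F15G9.t1. The first window is chrX:15741855-15742154 and the second chrX:9743447-9743746, both on the plus strand of WBcel235.
ZK678.t1 window: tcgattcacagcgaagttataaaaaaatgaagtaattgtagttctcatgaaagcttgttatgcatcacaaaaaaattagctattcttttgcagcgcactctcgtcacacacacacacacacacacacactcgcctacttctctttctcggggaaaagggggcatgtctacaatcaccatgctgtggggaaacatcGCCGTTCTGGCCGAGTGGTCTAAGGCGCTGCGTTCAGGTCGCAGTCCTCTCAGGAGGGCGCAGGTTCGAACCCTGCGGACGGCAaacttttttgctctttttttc
F15G9.t1 window: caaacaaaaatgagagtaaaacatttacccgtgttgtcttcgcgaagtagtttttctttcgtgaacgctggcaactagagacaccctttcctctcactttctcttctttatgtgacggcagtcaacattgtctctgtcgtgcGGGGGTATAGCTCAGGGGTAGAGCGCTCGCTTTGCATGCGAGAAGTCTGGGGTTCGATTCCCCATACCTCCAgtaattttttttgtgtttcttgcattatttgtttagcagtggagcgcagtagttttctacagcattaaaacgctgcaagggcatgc

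The lists used were the pooled list and those of the 2 libraries, each of 30000 regions of 1 fixed width (324 bp pooled, 344 bp in replicate 1 and 310 bp in replicate 2). The signal of a region is the peak caller's own value, given by the authors and not stated to be scaled to a common depth. To set libraries side by side, each value was divided by the median listed region of its list (10.3 pooled, 6.50 in replicate 1, 6.07 in replicate 2) and is called a ratio below. The number of reads behind any region is unknown. A shorter list of 248 regions was thresholded by the authors with the irreproducible discovery rate, which judges how alike the ranks of regions are between replicates. The design allows no test, since there is 1 group and regions are not replicates, so the values below are descriptions set beside the same values for all listed regions. Wilson 95% intervals on shares of genes cover counting error only, and neighbouring genes can share a region.

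Listed regions covered 9.58% of the genome, and a window of 72 bp, the median length of a tRNA gene, touches a listed region at 11.6% of all positions. Of the 612 tRNA genes 43.1% were touched (interval 39.3 to 47.1%). Annotated tRNA pseudogenes, which resemble tRNA genes but are not counted as functional, were touched in 27 of 209 cases (12.9%, 9.03 to 18.1%). Among other small RNA classes, snoRNA genes were touched in 124 of 346 cases (35.8%), snRNA genes in 38 of 129 (29.5%), miRNA genes in 45 of 261 (17.2%) and rRNA genes in 0 of 20 (Wilson upper bound 16.1%). The tRNA share thus lay above the share of positions and above that of the pseudogenes, while its interval overlapped that of the snoRNA genes (30.97 to 41.02%). The classes differ in median gene length, from 72 bp for tRNA genes to 130 bp for snoRNA genes, and longer genes are easier to touch. Pseudogenes also differ from tRNA genes in place, with 29 of 209 on X against 276 of 612. The median share of repeated 31-base words around the gene was 2.38% for pseudogenes and 18.4% for tRNA genes. Among tRNA genes without an identical copy 35.7% were touched. The part of these differences in the shares was not tested.

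**Figure D1:**
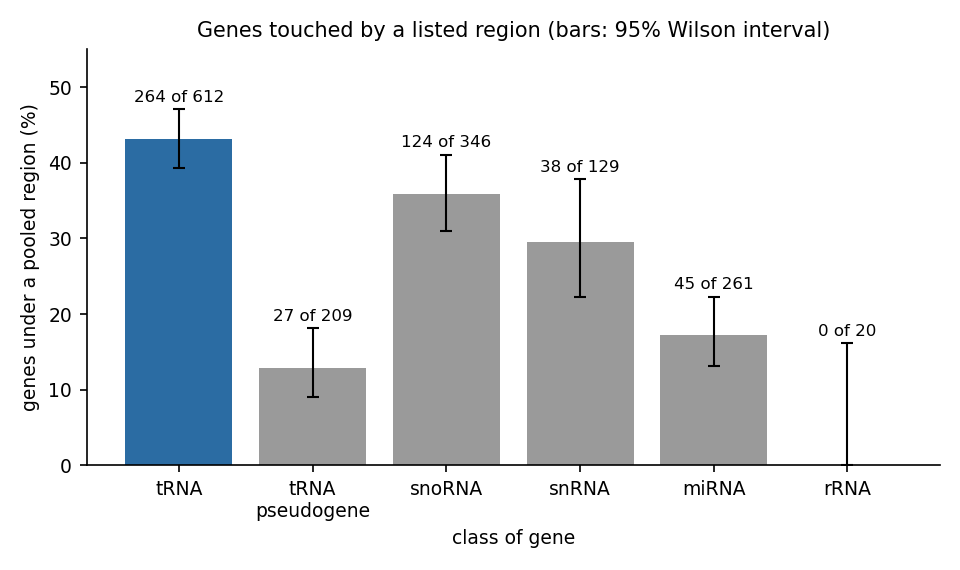
Percent of annotated genes of each class that share at least 1 bp with a region of the pooled list, with 95% Wilson intervals as bars and the counts above them. The tRNA genes stand at 43.1%, the tRNA pseudogenes at 12.9%.

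Members stood high within the list. Their median pooled signal was 13.9 (quartiles 10.1 and 19.8, range 7.75 to 63.7), against 10.3 over all listed regions (8.83 and 12.6, range 7.73 to 114.6). Regions at snoRNA and snRNA genes stood higher still, at medians of 15.7 and 17.5. Those at miRNA genes and tRNA pseudogenes stood lower, at 11.3 and 10.2. Of the 264 members, 157 (59.5%) lay above the upper quartile of the whole list, and 70 lay among the 15000 weakest regions. The share of regions that were members fell with rank, from 20 of the 248 strongest (8.06%) to 38 of ranks 249 to 1000 (5.05%), 72 of ranks 1001 to 5000 (1.80%), 64 of ranks 5001 to 15000 (0.64%) and 70 of the rest (0.467%). The group was therefore mixed, with a strong minority and a long weak tail.

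The thresholded list held 20 members (7.58% of members), where 0.827% of all pooled regions are in it. A pooled q-value at or below 0.05 was listed for 45 members (17.05%), where the background is 2.32%. The 20 thresholded members had pooled signals of 30.9 or more. The 3 members just inside the threshold were C24H11.t1 (threonine, 31.9), ZK899.t1 (proline, 31.04) and F44A2.t1 (alanine, 30.9). Those just outside were W03G11.t1 (lysine, 30.3), C04E7.t1 (leucine, 29.0) and F52H2.t2 (asparagine, 28.9), so the step between the groups was small.

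Both libraries showed members above the typical listed region. Replicate 1 listed 195 members (73.9%) at a median ratio of 1.40, and replicate 2 listed 214 (81.1%) at a median ratio of 1.51. Over all pooled regions the shares were 59.6% and 57.7%, and the median ratio of those matched was 1.13 in each. A q-value at or below 0.05 was listed in replicate 1 for the regions matched to 44 members (16.7%), where the background over that list is 2.65%. In replicate 2 it was listed for 91 members (34.5%), where the background is 6.68%. Some members share a library region, so these counts are not of library regions. Of the regions at tRNA genes in each library list, 35 of 208 (16.8%) in replicate 1 and 77 of 237 (32.5%) in replicate 2 had such a q-value. Counted over genes, replicate 1 listed 205 tRNA genes (33.5%), replicate 2 listed 241 (39.4%), and 123 were in both, while 270 of the 612 (44.1%) were in none of the 3 lists.

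**Figure D2:**
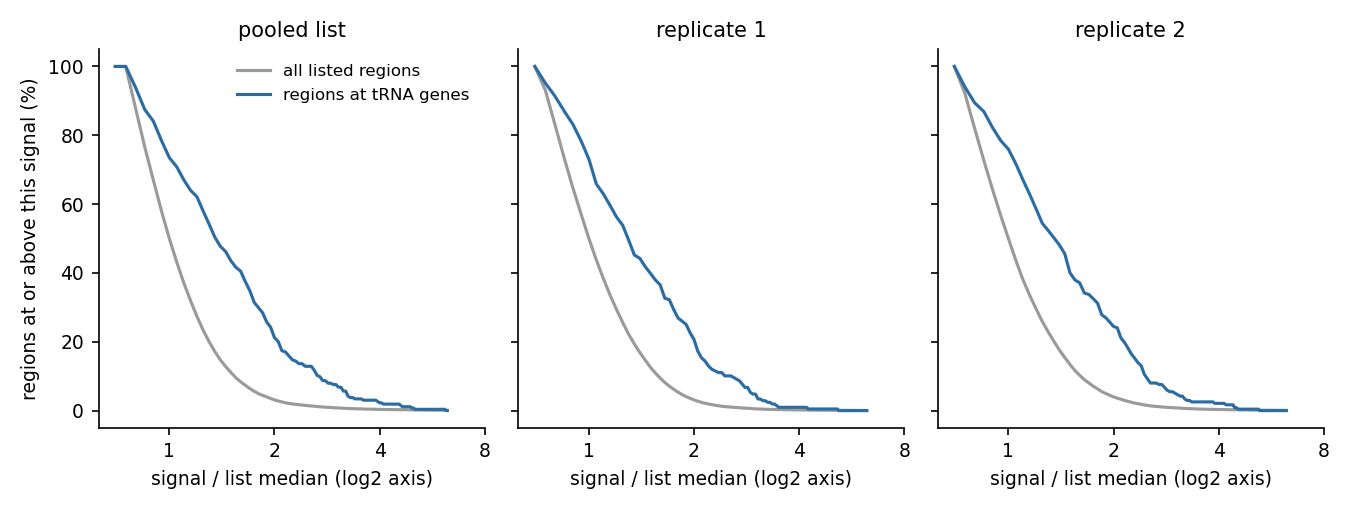
Percent of regions at or above a given signal, with the signal divided by the median of the list on a log2 axis, for the pooled list and each library. Regions at tRNA genes (blue) lie above all listed regions (grey) over most of the range in each of the 3 lists, with pooled medians of 13.9 and 10.3 before division.

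The heights of single members were only loosely shared by the libraries. Of the 264 members, 155 (58.7%) were overlapped in both library lists, where the background is 28.4%, 40 in replicate 1 only, 59 in replicate 2 only and 10 in neither. Across the 155, replicate 2 had the higher ratio at 86 and replicate 1 at 69. The correlation of log2 ratios was 0.40 (Pearson) and that of ranks 0.30 (Spearman), beside 0.35 and 0.17 over the 8508 pooled regions found in both lists. These points share the caller, the control and the choice of pooled regions, and the 155 members map to only 141 and 140 distinct library regions. The libraries differed by over 2-fold at 33 members (21.3%), against 10.1% of the 8508. All 20 thresholded members were listed in each library, a condition that the thresholding step itself draws on, with a q-value at or below 0.05 for 16 of them in replicate 1 and 19 in replicate 2. The same counts over the whole thresholded list are not given here, so these do not set members apart from it.

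**Figure D3:**
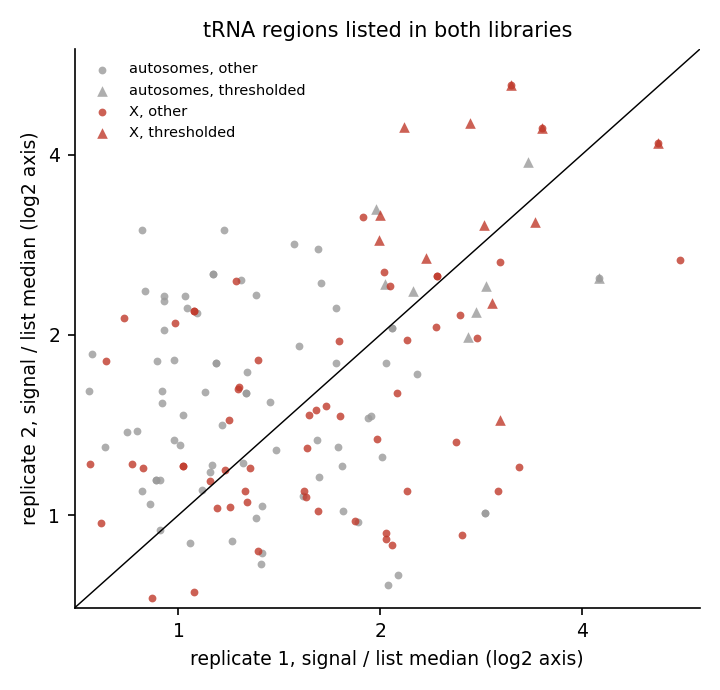
Signal of the 155 members listed in both libraries, each divided by its list median, on log2 axes, with X in red, autosomes in grey, thresholded members as triangles and the line of equality in black. The points scatter widely about the line, with replicate 2 higher at 86 and replicate 1 higher at 69.

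The strongest member lay at C28G1.t1 (WBGene00022947), a glutamate gene with anticodon TTC (chrX:8835868-8836191, pooled signal 63.7, rank 31). Its ratios were 5.20 in replicate 1 and 4.18 in replicate 2 (4.69 ± 0.719, SD, n = 2), so both libraries placed it high. Its summit lay 14 bp from a protein-coding 5′ end and 118.5 bp upstream of the middle of the tRNA gene, which overlaps an exon of C28G1.2. A second, weaker member at this gene (11.2, rank 11576) matched the same library regions. The next was F46G11.t2 (WBGene00023051), the intergenic proline gene shown above (chrX:5801137-5801460, 51.5, rank 61), with ratios of 3.13 and 5.23. Here the nearest protein-coding 5′ end lay 2509 bp from the summit. A second, weaker member at the neighbouring F46G11.t1, a proline gene of the same sequence (chrX:5801340-5801663, 19.7, rank 1169), matched the same library regions.

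The third region touched a pair, M02F4.t2 (glutamate, CTC) and M02F4.t1 (glycine), at chrX:3035860-3036183 with a pooled signal of 50.5 and ratios of 3.48 and 4.43. Its summit lies inside M02F4.t2, and it reaches only the start of M02F4.t1 at 3036164. A second, weaker member over M02F4.t1 (chrX:3036060-3036383, 16.2, rank 2662) matched the same library regions. The alanine genes F15G9.t1 and F15G9.t2, inside an intron of him-4, which encodes hemicentin, shared the region chrX:9743435-9743758 (47.2), at ratios of 2.72 and 4.51. This region holds all of F15G9.t1, with the summit inside that gene, but reaches only the start of F15G9.t2 at 9743747. In neither pair can the signal be divided between the 2 genes. On chromosome I, C37A2.t1 (cysteine) lay in an intron of cye-1, the gene of cyclin E (47.8, ratios 3.33 and 3.89). F47G6.t1 (arginine, TCT) lay in an intron of spe-15, a myosin gene required in sperm (40.8, ratios 4.24 and 2.49).

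Libraries disagreed most, among the thresholded members, at ZK678.t1 and R04A9.t1. ZK678.t1 (WBGene00014626), a leucine gene with anticodon CAG, had a pooled signal of 41.8 (rank 107) with a ratio of 2.17 in replicate 1 and 4.45 in replicate 2. The stronger region at R04A9.t1 (WBGene00023117), a glutamine gene with anticodon TTG, had 33.4 (rank 190) with 3.02 in replicate 1 and 1.44 in replicate 2, where its q-value did not pass 0.05. This region (chrX:410076-410399) reaches only the start of the gene at 410391, its summit lay 188.5 bp upstream of the gene's middle, and it held no 31-base word found elsewhere in the nuclear genome. A second, weaker member covers the gene itself (chrX:410278-410601, pooled signal 13.9, rank 5092), with its summit 13.5 bp from the middle of the gene. Its ratios were 3.02 in replicate 1, from the same library region as the first, and 2.65 in replicate 2, where a q-value at or below 0.05 was listed. The 2.09-fold gap between the libraries thus holds for the upstream region and not for the region over the gene.

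The other named members of the thresholded list had pooled signals from 32.1 to 40.6. They were C53C7.t1, which shares its region with C53C7.t2 (serine), C42D8.t1 and F57F5.t1 (isoleucine), R04D3.t2 (valine), rte-1 (glutamate), F10C1.t1 (glycine), ZC412.t1 (phenylalanine), ZK563.t1 (threonine) and T15B12.t1 (methionine). The ratios at R04D3.t2 were 2.86 and 3.05, among the closest of these, and those at F57F5.t1 were 1.98 and 3.24. All 9 regions stood above the median listed region in each library.

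Some members lay below the threshold although they were the strongest of their isotype, the amino acid that the tRNA carries. C06G1.t1 (histidine) reached 28.3 with ratios of 2.79 and 1.98, and C35E7.t1 (aspartate) reached 22.9 with 2.04 and 1.80. The tryptophan genes include sup-5 and sup-7, known from mutations that turn them into suppressors of amber stop codons. At sup-5 (WBGene00006314), in an intron of fli-1, the pooled signal was 22.2 (rank 671) with ratios of 1.53 and 1.07, and at sup-7, named after its values were seen, it was 16.2, with a ratio of 1.72 in replicate 1 and no region in replicate 2. Y43F4A.t1 (tyrosine) had 21.6 (rank 759) with ratios of 0.953 and 2.28, so its place rested on the second library. The only gene for selenocysteine tRNA, K11H12.t1, also named after its values were seen, was touched at 21.1 (rank 845). Its ratios were 1.92 and 1.45, and its summit lay 149.5 bp upstream of the gene's middle.

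Most isotypes were touched at shares near that of all tRNA genes. The shares ran from 8 of 13 cysteine genes (61.5%, 35.5 to 82.3%) and 7 of 12 tryptophan genes (58.3%) to 9 of 27 glutamine genes (33.3%). The numerous families lay between, with 25 of 55 glycine genes (45.5%), 17 of 46 lysine genes (37.0%), 19 of 44 arginine genes (43.2%), 22 of 42 proline genes (52.4%) and 20 of 41 glutamate genes (48.8%). The intervals of all these isotypes include the share over all tRNA genes. Tyrosine genes stood lowest, with 3 of 19 touched (15.8%, 5.52 to 37.6%), an interval that ends below 43.1%. In the library lists the tyrosine counts were 4 of 19 in replicate 1 (21.1%) and 5 of 19 in replicate 2 (26.3%), beside 33.5% and 39.4% of all tRNA genes, and they were not the lowest in replicate 2 alone, where 7 of 27 glutamine and 5 of 20 asparagine genes were touched. With 20 isotypes of 12 or more genes set side by side, an extreme share in 1 of them carries no test here.

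The 19 tyrosine genes all carry the anticodon GTA and an intron of 11 bp. Those touched were Y43F4A.t1 (21.6), R11.t1 (17.4) and R148.t1 (8.11), of which Y43F4A.t1 and R11.t1 (ratios 1.26 and 1.10) were listed in both libraries and R148.t1 in replicate 1 only (0.809). On X 1 of 8 tyrosine genes was touched and on autosomes 2 of 11, so the low share was seen on both. Among single anticodons, arginine TCT had 7 of 8 genes touched (87.5%, 52.9 to 97.8%), at a median signal of 12.2. This share rested on replicate 1, whose list touched 7 of the 8, while that of replicate 2 touched 3 of 8 (37.5%).

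**Figure D4:**
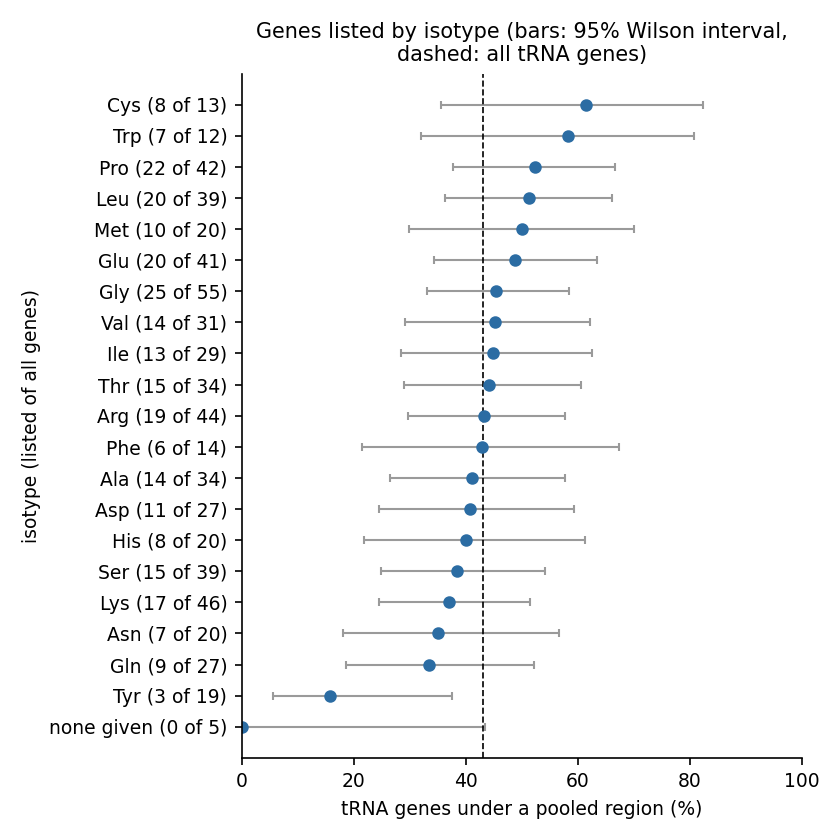
Percent of tRNA genes touched by a pooled region for each isotype with 3 or more genes, with 95% Wilson intervals as bars, and the 5 genes with no isotype given. The dashed line marks the 43.1% of all tRNA genes, and the interval of tyrosine, up to 37.6%, ends below it.

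The X chromosome holds 276 of the 612 tRNA genes (45.1%) on 17.7% of the nuclear genome. Of these 119 were touched (43.1%, 37.4 to 49.0%), against 145 of 336 on autosomes (43.2%, 38.0 to 48.5%), shares that cannot be told apart. The 115 members on X had a median pooled signal of 15.5 and the 149 on autosomes 13.6, with 12 and 8 in the thresholded list, of whose 248 regions X held 54 in all. The libraries differed on this point. In replicate 1 the median ratio was 1.74 on X and 1.26 on autosomes, and in replicate 2 it was 1.48 on X and 1.54 on autosomes, so the higher median on X was seen in replicate 1 alone. Among the 248 strongest regions of each library, X held 11 of the 17 at tRNA genes in replicate 1 and 9 of the 12 in replicate 2, beside 56 and 53 of all 248. The regions of all kinds on X and on autosomes had medians within 1% of each other in every list, for example 1.005 and 0.999 in replicate 1. Among single autosomes the touched share ran from 28 of 78 genes on V (35.9%) to 34 of 64 on III (53.1%).

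By location, intergenic tRNA genes were touched in 139 of 319 cases (43.6%), those inside an intron of a protein-coding gene in 120 of 283 (42.4%), and those overlapping an exon in 5 of 10. Within introns, genes on the strand opposite to the host were touched in 59 of 122 cases (48.4%, 39.7 to 57.1%) and genes on the same strand in 61 of 160 (38.1%, 30.96 to 45.85%), with overlapping intervals. A tRNA gene with another within 1 kb was touched in 101 of 236 cases (42.8%) and one without in 163 of 376 (43.4%). The median signal was 12.5 with a neighbour and 15.1 without, and 5 and 15 of these members were thresholded.

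A protein-coding 5′ end lay within 1 kb of the summit for 87 members (33.0%), against 38.4% of all listed regions, and the median signal was 12.8 for those 87 and 14.4 for the other 177. Of the 20 thresholded members, 9 had a 5′ end within 1 kb and 11 did not, so the signal of those 9 may belong to either gene. None of the 264 members overlapped a snoRNA, snRNA or rRNA gene.

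Genes with and without the exact internal promoter letters were touched at like shares, though few lacked the B box letters. B box letters were found in 587 of 612 genes (95.9%), and 254 of these 587 were touched (43.3%) against 10 of the 25 without (40.0%, 23.4 to 59.3%). A box letters, sought within the first 25 bases, were found in 263 genes (43.0%), of which 41.4% were touched, against 44.4% of the genes without. Both splits rest on exact letters, since 92.6% of genes held the A box letters and 99.8% the B box letters when 1 mismatch was allowed. A run of at least 4 T followed the gene within 15 bases in 98.0%. On both strands of the regions, B box letters were present in 89.8% of members and 12.8% of all listed regions, A box letters in 52.7% and 29.5%. Members were chosen for touching a tRNA gene, and 95.9% of tRNA genes hold B box letters. The higher share in members is thus largely set by that choice. Another 3614 regions held B box letters without touching a tRNA gene. Their median signal was 10.3, the same to this precision as over all listed regions, and 0.664% of them were thresholded, so the letters alone went with no higher signal. Among tRNA pseudogenes, B box letters were found in 165 of 209 (78.9%), and 24 of these were touched (14.5%) against 3 of the 44 without.

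Identical genes were listed unequally. Of the 612 genes, 469 (76.6%) have at least 1 identical copy, and there are 200 distinct sequences. Genes without a copy were touched in 51 of 143 cases (35.7%, 28.3 to 43.8%), those with 2 to 4 identical genes in 34 of 67 (50.7%), 5 to 9 in 35 of 85 (41.2%) and 10 or more in 144 of 317 (45.4%). All 32 families of at least 5 identical genes, 402 genes together, held both touched and untouched genes. In the proline family of F46G11.t2 16 of 24 genes were touched, with pooled signals from 7.97 to 51.5, and ZK899.t1, of the same sequence, stood at 31.04. In the glycine family of M02F4.t1 17 of 29 were touched. Their signals ran from 7.97 to 23.1 in regions that hold no other kind of tRNA gene. The region at 50.5 lies over a glutamate gene and reaches only part of M02F4.t1. In the lysine family of W03G11.t1 8 of 25 were touched, from 8.08 to 30.3. The same gene sequence thus came with signals several times apart.

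Repeated sequence was more common in members than in all listed regions. A mean of 15.9% of the 31-base words of a member were found more than once in the nuclear genome, against 1.55% over all listed regions. Mean GC content was 42.4% against 37.6%. In windows of a region's width centred on the gene, touched and untouched tRNA genes had the same median share of such words, 18.4%. Median GC content there was 42.3% at touched and 40.1% at untouched genes. How the aligner placed reads that fit several copies is not given in the sources used here. The part of either property in the signals was not tested. Genes without an identical copy include 3 of the thresholded members, F57F5.t1 (33.4), F10C1.t1 (33.0) and F44A2.t1 (30.9), each at 1.98 or more times the median region in both libraries. The summits of these 3 lay 331, 346 and 93 bp from a protein-coding 5′ end, so the signal of each may belong to either gene.

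The position of the summit differed along the ranking. A summit is the middle of each fixed-width region, and positions were taken relative to the middle of the tRNA gene in its own direction. Over all 264 members 151 summits lay upstream and 113 downstream, the median offset was -10.25 bp, and 184 (69.7%) lay within 100 bp. Among the 20 thresholded members 18 lay upstream and 2 downstream, with a median of -30.0 bp. Of these 20, 9 summits lay before the gene, 10 inside it and 1 past its end, while among the other 244 the numbers were 92, 79 and 73. Among the 45 members at a pooled q-value of 0.05 or less, 35 were upstream and 10 downstream.

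Among the strongest regions of each library list, from whose reads the pooled list was made, most summits lay upstream of the gene's middle as well. Of the regions at tRNA genes among the 248 strongest of replicate 1, 15 of 17 summits lay upstream, and in replicate 2 11 of 12 did, against 116 of 208 and 134 of 237 over all regions at tRNA genes. At a q-value of 0.05 or less the counts were 25 of 35 in replicate 1 and 47 of 77 in replicate 2 (61.0%), the latter close to the 56.5% over all regions of replicate 2 at tRNA genes. Among the 11 thresholded members more than 1 kb from a protein-coding 5′ end, all 11 lay upstream. At genes without an identical copy 23 of 50 summits lay upstream, and at genes with one 128 of 214, a difference that was not tested. The 2 thresholded members with summits downstream were F10C1.t1 (73.0 bp) and C24H11.t1 (3.5 bp).

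**Figure D5:**
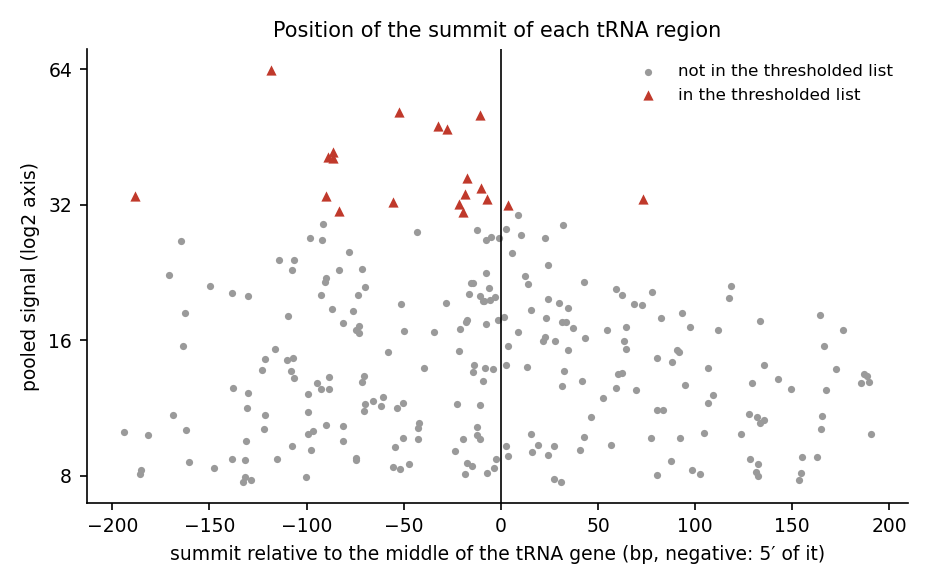
Pooled signal (log2 axis) of each of the 264 members against the distance from the middle of the tRNA gene to the summit in bp, negative values lying upstream in the gene's direction. Of the 20 thresholded members (red triangles) 18 lie left of the line at 0, and of the others (grey) 133 of 244 do.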

How the data were processed

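The values are regions deposited in narrowPeak format on the build ce11, a name for the assembly WBcel235. Per the library file listings, the authors made each library list from alignments set against a control, the pooled list from all reads together, and the thresholded list from the other lists. The deposited signal (column 7) and the deposited −log10 q-value (column 9) are the authors' values. The peak caller, aligner, IDR threshold and read numbers are not given in the sources used here, so depth is unknown.

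Regions were joined to Ensembl release 115 genes by an overlap of at least 1 bp. A member's library value is that of the strongest overlapping region of that library. Isotypes came from RefSeq. Anticodons were read from the gene sequence as the middle 3 bases of a 7-base loop, with T before them and A or G after. The stem of 5 positions had to hold at least 4 pairs, G-T pairs counted, and an intron was allowed. An anticodon was read in 590 of 612 genes, and it fitted the RefSeq isotype in 584 of 586 with both. Repeats are 31-base words found more than once in the nuclear genome, both strands taken as 1. Computation used Python 3.11.15, pandas 2.3.3 and scipy 1.17.1, and the overlap, motif and anticodon steps were tested on simulated data.

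Named genes are those under the 15 strongest members, the strongest member of each isotype with at least 3 members, the 3 members either side of the threshold, and the thresholded members with the largest and smallest ratio of library values. The members, lists and classes were chosen with earlier results of these data known. No sequence from chromosome I is printed here, though its genes and regions are counted in all values. Alternatives were other overlap rules, merged regions, members with copies or other genes nearby left out, each library alone, stricter thresholds, ce10 lists and looser motifs.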

Additional observations from a re-analysis of the deposited data

How the results depend on the processing

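No paired analysis was possible because there is 1 group. Of 44 alternative values, 23 stayed close to the main ones, within 1.5 times for counts, within the Wilson interval for shares, and within 0.0549 (the SD of the 2 library medians) for the median ratio of members to all listed regions, 1.35 in the pooled list. The share of tRNA genes touched (43.1%) was 37.3% when a summit had to lie within 100 bp of the gene and 54.2% when genes were widened by 250 bp, and the median ratio was then 1.41 and 1.28. With overlapping rows merged the median ratio was 1.47. Leaving out members at a gene with an identical copy left 47 of 264 members, with a median ratio of 1.21, 3 thresholded and 5 at a q-value of 0.05 or less. Leaving out members near a protein-coding 5′ end or at other small RNA genes left 11 of 20 thresholded members and 27 of 45 at that q-value. The strongest 124 thresholded regions held 8 members. Of the 45, 18 passed a q-value of 0.01, a cut at which the share over all listed regions is not given here. With 1 mismatch allowed, A box letters were found in 92.6% of genes and B box letters in 99.8%. The causes of these shifts, beyond the smaller or larger sets that each setting makes, were not tested.

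With each library alone in place of the pooled list, without replicate 1 or without replicate 2, members numbered from 208 to 237, the share of genes touched ran from 33.5 to 39.4%, the median ratio from 1.29 to 1.37, members among the 248 strongest from 12 to 17, and members at a q-value of 0.05 or less from 35 to 77. The share touched ran from 34.1 to 40.9% on X and from 33.0 to 38.1% on autosomes. Without replicate 1 the members among the 248 strongest were 12 and those at a q-value of 0.05 or less 77, both over 1.5 times from the pooled counts of 20 and 45. Read depth is unknown, so how far it limits the weaker regions was not tested.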
